A study of Homo sapiens with 36 samples.

Results

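The SLC25A genes encode the mitochondrial carrier family, and they were followed here in the pseudopod (PS) and cell body (CB) RNA of 6 human cancer cell lines. The members are all genes whose current symbol begins with SLC25A and that have an array probe set carrying a single gene symbol. There were 50 of them among 19775 genes, with 102 probe sets. Of these, 45 are protein-coding carriers, 4 are antisense RNAs (SLC25A5-AS1, SLC25A21-AS1, SLC25A25-AS1 and SLC25A48-AS1) and 1 is a transcribed pseudogene (SLC25A3P1). The test covered 45 members, of which 41 are carriers and 4 antisense RNAs. SLC25A31, SLC25A41, SLC25A47, SLC25A53 and SLC25A3P1 did not reach the intensity minimum of 24.4 in the mean of any group and were left out, and SLC25A6 and SLC25A52 were not analysed here.

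Mitochondrial carriers are small proteins of the inner mitochondrial membrane that exchange metabolites, nucleotides, ions and cofactors between the cytosol and the matrix. They are made on cytosolic ribosomes from nuclear genes, pass the outer membrane through the TOM complex, are chaperoned across the intermembrane space by small TIM proteins and are inserted by the TIM22 complex. The citrate, malate and aspartate carriers connect respiration with lipid synthesis and with the shuttling of reducing equivalents, and the ADP/ATP carriers export the ATP that the cell spends on movement. A few members sit elsewhere: SLC25A17 is peroxisomal, and SLC25A46 and the related MTCH proteins lie in the outer membrane.

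The lines U87 and U251 come from glioblastoma; HT1080 comes from a fibrosarcoma, DU145 from a prostate carcinoma and MDA231 from a breast carcinoma. MDA435 was long described as a breast cancer line and is known for melanocytic gene expression. The labels give all lines by name only. The labels name no altered gene and no added agent for any group. Cells were plated on a porous filter, and after a day the material on its underside (PS) and on its upper side (CB) was scraped off separately. Each line and fraction has 3 arrays, 36 in all, and the medium differed between the first 3 lines (DMEM) and the other 3 (RPMI-1640). The labels do not say that the replicates were separate cultures, so the p-values measure the spread between these arrays, which may be technical. An array measures each RNA relative to the rest of its fraction, and fewer cells of a kind contributing to a fraction cannot be told apart from less of an RNA in each cell.

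The array medians were 23.04 ± 2.49 intensity units in PS and 25.8 ± 2.29 in CB (SD, n = 18 arrays each). Melanocytic markers were summed over 5 genes and reached 2966 to 5872 units in MDA435 and at most 152.8 in the other lines. Summed glial markers were highest in U251, at 2447 to 3896 units, followed by MDA435 at 464.6 to 1529 and U87 at 105.1 to 750.8 units. Averaged over lines, 4 of 5 mesenchymal markers were lower in PS (median -0.76), as were 2 of 5 glial and 2 of 4 melanocytic ones, while 2 of 6 epithelial markers were higher (median 0.23). Over all genes tested 20.8% were lower and 29.5% higher, so the epithelial share of 33.3% lay near the background. The shares lower in PS of the mesenchymal (80%), melanocytic (50%) and glial markers (40%) lay above it, over 4 or 5 genes each. Summed mesenchymal markers overlapped between PS and CB in DU145 (3207 to 3722 units against 2778 to 3473) and MDA231 (3883 to 4516 against 3518 to 4710). They also overlapped, narrowly, in HT1080 (6568 to 10824 units against 10742 to 12571). The part of all these markers in the SLC25A results was not tested. The array replicates of MDA231 and MDA435 stand apart in CDH1, the epithelial cadherin: it was at 1299 and 1778 units in PS replicate 3 and CB replicate 2 of MDA231 against at most 13.7 in the other 4 arrays, and at 33.2 and 32.8 in PS replicate 3 and CB replicate 1 of MDA435 against at least 921.5 in the other 4. Below, the counts and medians of these lines, and the SLC25A values that rest on them most, are also given without these 4 arrays. Values below are linear intensity units, and a change is the difference in log2(intensity + 16), PS minus CB.

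Averaged over the 6 lines, the carriers leaned toward the pseudopods. Of the 45 members tested, 19 were higher in PS, which is 42.2% against a background of 29.5% of all genes tested, and 2 were lower, which is 4.44% against 20.8%. The other 24 did not pass the limma test at an adjusted p under 0.05. All 19 higher members are carriers, and the lower ones are SLC25A27 and the antisense RNA SLC25A25-AS1. The median change of the 41 carriers was 0.14, against 0.047 for all genes tested, and 31 of the 41 were above 0. Of the called members, 3 rose by at least 1.5-fold and 1 fell by as much. The share of all genes that reached this fold was not counted. Of the 19, 16 were higher in 6 of 6 lines, SLC25A23 and SLC25A25 in 5 and SLC25A26 in 4. Over all 45, called or not, 17 had a higher PS mean in 6 of 6 lines (37.8%, background 27.8%) and 4 had a lower one (8.89%, background 17.1%).

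**Figure D1:**
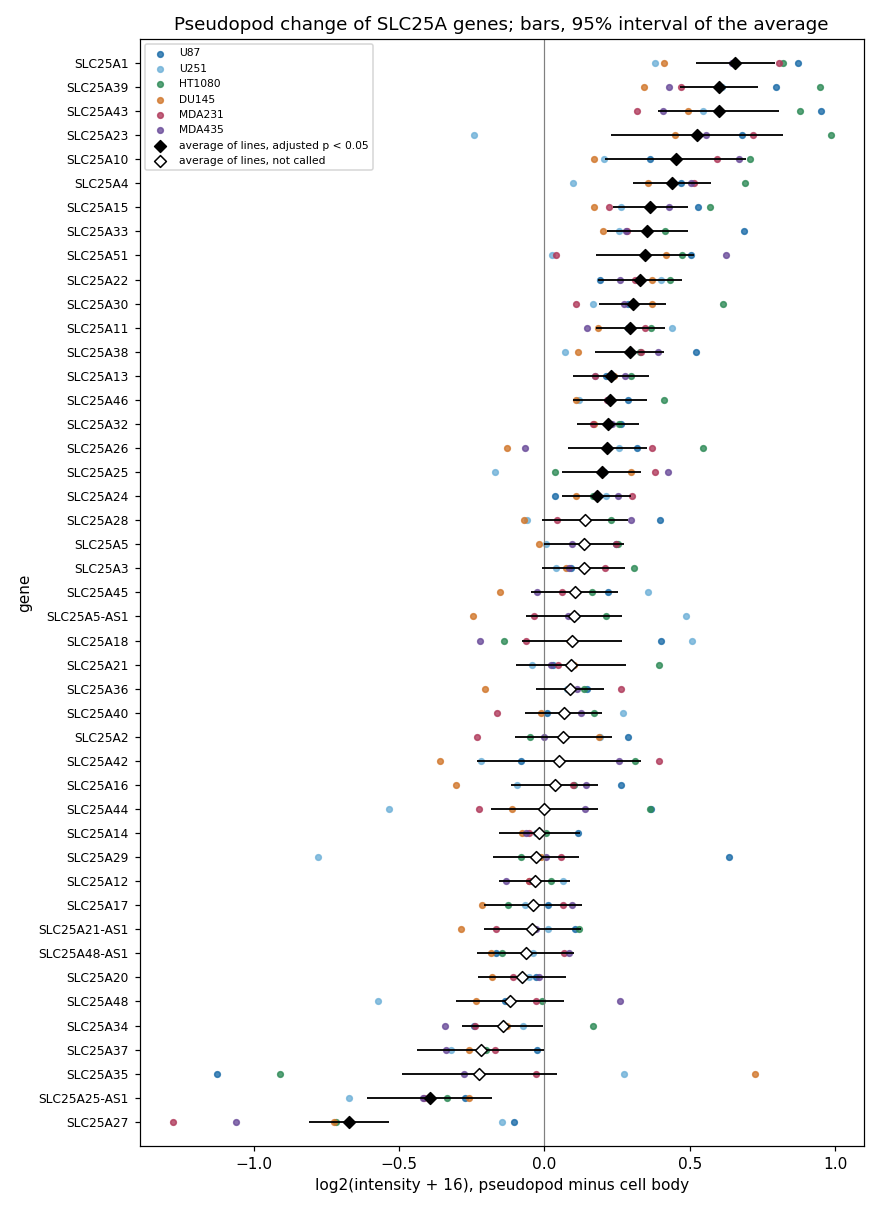
Change of each tested SLC25A gene on the log2(intensity + 16) scale (x axis), with genes ordered by the average over lines (y axis); coloured points are the 6 lines, diamonds the average of the lines (filled, adjusted p under 0.05), and bars the 95% interval of the average. The 19 filled diamonds to the right of 0 run from SLC25A24 at 0.18 to SLC25A1 at 0.66, and SLC25A27 at -0.67 and SLC25A25-AS1 at -0.39 are the filled ones to the left.

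The carriers of di- and tricarboxylates held the largest rise. SLC25A1, the citrate carrier that supplies the cytosol with carbon for fatty acid and sterol synthesis, was at 798, 1002 and 848 units in the PS arrays of U87 and at 534, 380 and 523 in CB. In U251 it was at 532, 705 and 656 in PS and 477, 531 and 430 in CB, and in HT1080 at 861, 908 and 736 against 470, 492 and 434. The DU145 arrays gave 972, 875 and 727 in PS and 649, 586 and 676 in CB. For MDA231 the values were 487, 425 and 501 against 265, 346 and 195, and for MDA435 they were 559, 498 and 594 against 372, 317 and 348. In each of the 6 lines every PS array of SLC25A1 lay above every CB array, by the narrowest margin in U251. The averaged rise was 0.66 ± 0.067 (SE, limma, 18 arrays against 18), or 1.58-fold, with an adjusted p of 2.41e-09.

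SLC25A10, the dicarboxylate carrier that exchanges malate or succinate for phosphate, rose by 0.45 ± 0.12 (SE, limma adjusted p = 0.00211). It was at 105, 84.2 and 78.3 units in the PS arrays of U87 against 57.2, 60.3 and 80.1 in CB, at 368, 308 and 376 in U251 against 322, 266 and 319, and at 194, 256 and 195 in HT1080 against 130, 134 and 111. In DU145 it was at 104, 112 and 105 against 115, 104 and 66.9. The fractions of SLC25A10 were apart in HT1080 and overlapped in the other 5 lines. In MDA231 the PS arrays gave 176, 219 and 408 and the CB arrays 120, 281 and 122.6, and in MDA435 the PS arrays gave 414, 296 and 169 and the CB arrays 118, 161 and 244. In both lines SLC25A10 was higher in the arrays with more CDH1 than in the other arrays of the same fraction. The part of that difference in the averaged change was not tested beyond leaving the arrays out, and SLC25A10 passed in every alternative. Without the 4 arrays that stand apart in CDH1 the averaged rise of SLC25A10 was 0.47, and it was 0.63 in MDA231 (0.59 with them) and 0.77 in MDA435 (0.67 with them).

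SLC25A11, the oxoglutarate carrier of the malate-aspartate shuttle, was at 1199 ± 408 units in PS and 964 ± 285 in CB (SD, 18 arrays each, spread over lines included) and rose by 0.29 ± 0.058 (SE). The other 3 of these 6 genes did not pass: SLC25A21, the oxodicarboxylate carrier, SLC25A34 at -0.14 ± 0.068 (adjusted p = 0.0828) and SLC25A35 at -0.22 ± 0.13 (adjusted p = 0.16). SLC25A34 and SLC25A35 have no firmly established substrate. The median over the 6 was 0.19, and the 3 rises among them stand against a background of 29.5% of all genes tested.

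Among the adenine nucleotide and phosphate carriers, SLC25A4, an ADP/ATP carrier known best from muscle and heart, rose by 0.44 ± 0.065 (SE, limma adjusted p = 1.78e-06). In HT1080 it was at 624, 697 and 645 units in PS and 413, 397 and 391 in CB. The DU145 arrays gave 266, 236 and 246 in PS and 187, 202 and 184 in CB. The MDA231 arrays gave 683, 609 and 500 against 448, 362 and 425, and those of MDA435 643, 876 and 669 against 508, 526 and 480. In these 4 lines the fractions of SLC25A4 did not overlap. They did in U87, with 153, 223 and 123.4 against 136, 89.1 and 117, and in U251, with 671, 651 and 645 against 532, 621 and 692. SLC25A5, the ADP/ATP carrier of dividing cells, was at 3637 ± 795 units in PS and 3276 ± 525 in CB (SD, 18 arrays each) and did not pass, with 0.14 ± 0.067 (SE, adjusted p = 0.0914). SLC25A5 was called with array weights (0.20, adjusted p = 0.00382) and after scaling to equal medians (0.30, adjusted p = 0.00668). SLC25A3, the carrier that brings phosphate for ATP synthesis and also copper, was at 3993 ± 806 and 3622 ± 613 and did not pass either (0.13 ± 0.069, adjusted p = 0.108), though its mean was higher in PS in 6 of 6 lines. SLC25A3 did pass in 4 of 12 alternatives, with equal array medians (0.30, adjusted p = 0.00721), the mean of all probe sets (0.28, adjusted p = 0.00364), array weights (0.17, adjusted p = 0.0119) and without probe sets ending _s_at or _x_at (0.42, adjusted p = 0.0138). SLC25A31, the germ cell ADP/ATP carrier, was at 5.37 units at most in a group mean.

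All 3 tested ATP-Mg/phosphate carriers, which use calcium to set the adenine nucleotide pool of the matrix, rose. The background was 29.5% of all genes tested, and a group of 3 is small. SLC25A23 changed by 0.52 ± 0.14 (SE, adjusted p = 0.00315), SLC25A25 by 0.20 ± 0.066 (adjusted p = 0.0144) and SLC25A24 by 0.18 ± 0.058 (adjusted p = 0.0113). SLC25A23 was dim in 3 lines: its U87 arrays gave 23, 23.2 and 4.7 units in PS and 4.8, 3.9 and 2.6 in CB, its U251 arrays 18.1, 3.7 and 30.3 against 5.3, 28.5 and 38.3, and its HT1080 arrays 65, 61.9 and 25.8 against 5.7, 20.2 and 27.4. In DU145 it was at 131, 75.5 and 84.8 against 59, 54.8 and 84.3, in MDA231 at 181, 198 and 171 against 153, 78.9 and 94.2, and in MDA435 at 233, 162 and 247 against 211, 140 and 87.7. Only in MDA231 did the fractions of SLC25A23 not overlap. The calls of the other members ended under some settings. SLC25A25 was at 0.093 (adjusted p = 0.319) without MDA231 and MDA435, and SLC25A24 was at 0.12 (adjusted p = 0.102) after quantile normalization.

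Of the carriers of aspartate and glutamate, SLC25A22 and SLC25A13 rose and SLC25A12 and SLC25A18 did not pass. SLC25A22, which imports glutamate with a proton, changed by 0.33 ± 0.071 (SE, adjusted p = 0.000282) and was at 231.1 ± 68.03 units in PS and 183 ± 63.3 in CB (SD, 18 arrays each). Its fractions did not overlap in U251, at 179, 167 and 199 against 139, 124 and 138, in HT1080, at 204, 221 and 218 against 190, 134 and 144, or in MDA231, at 299, 323 and 321 against 261, 236 and 252. SLC25A13 and SLC25A12, also called citrin and aralar, export aspartate in the malate-aspartate shuttle. SLC25A13 was at 871 ± 232 and 740 ± 190 units and changed by 0.23 ± 0.064 (adjusted p = 0.00361). SLC25A12 was at 335 ± 99.5 and 343 ± 100.4 units and differed by -0.032 ± 0.060, with a 95% interval from -0.15 to 0.089. The difference between these paralogs was not tested.

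Of 6 members grouped here under other amino acids, not all with a settled substrate, SLC25A15 and SLC25A38 rose, a share near the background of 29.5%. SLC25A15, the ornithine carrier of the urea cycle, changed by 0.36 ± 0.063 (SE) and was at 493 ± 97.6 units in PS and 378 ± 65.9 in CB (SD, 18 arrays each). Its fractions did not overlap in U87, at 553, 544 and 417 against 314, 379 and 339, in HT1080, at 571, 497 and 677 against 399, 396 and 357, or in MDA435, at 552, 502 and 547 against 352, 385 and 443. SLC25A38 imports the glycine that starts haem synthesis, and it was at 760 ± 124 and 615 ± 91.0 units with a change of 0.29 ± 0.058. SLC25A2, SLC25A29, SLC25A44 and SLC25A48 did not pass on the average. SLC25A44, a carrier of branched-chain amino acids, was at 745 ± 190 units in PS and 746 ± 194 in CB.

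Carriers of nucleotides and cofactors gave 5 rises among 10 members (background 29.5% of all genes tested), with a median of 0.15 over the 10. SLC25A39, required for glutathione uptake into mitochondria, had the second largest rise of all members at 0.60 ± 0.065 (SE, limma adjusted p = 8.53e-09), or 1.52-fold. Its U87 arrays gave 641, 691 and 596 units in PS and 335, 400 and 355 in CB, and its U251 arrays 535, 535 and 512 against 355, 366 and 302. In HT1080 it was at 536, 533 and 521 against 294, 248 and 260, and in DU145 at 645, 661 and 578 against 487, 510 and 475. The fractions were apart in these 4 lines. They overlapped in MDA231, with 706, 460 and 580 against 479, 465 and 308, and in MDA435, with 648, 443 and 517 against 404, 319 and 456. SLC25A40, its closest relative, was at 600 ± 172 units in PS and 571 ± 168 in CB (SD, 18 arrays each) and differed by 0.066 ± 0.064 (SE, adjusted p = 0.417), though it passed with equal array medians (0.22, adjusted p = 0.00116). No test compared SLC25A39 with SLC25A40.

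The other risers of that group were SLC25A33, SLC25A51, SLC25A32 and SLC25A26. SLC25A33, which imports pyrimidine nucleotides, changed by 0.35 ± 0.068 (SE) and was at 597, 540 and 424 units in the PS arrays of U87 against 290, 378 and 283 in CB, at 837, 882 and 955 in U251 against 806, 651 and 779, and at 482, 472 and 535 in HT1080 against 420, 344 and 344. Its fractions overlapped in DU145, MDA231 and MDA435. SLC25A51, the NAD+ carrier, changed by 0.35 ± 0.082 and was at 191 ± 43.7 units in PS and 146 ± 32.6 in CB (SD, 18 arrays each). SLC25A32, which carries folate and FAD, was at 1173 ± 287 and 1005 ± 242 units with a change of 0.22 ± 0.052. SLC25A26, the carrier of S-adenosylmethionine, was at 415 ± 97.9 and 358 ± 101.4 units with a change of 0.22 ± 0.066, and with the 6 lines as units its adjusted p was 0.0873. SLC25A36, a pyrimidine nucleotide carrier like SLC25A33, did not pass (0.089 ± 0.057, adjusted p = 0.207), nor did SLC25A16, the peroxisomal SLC25A17, or SLC25A42, the coenzyme A carrier. The alternatives called SLC25A36 in opposite directions: higher with equal array medians (0.25, adjusted p = 0.000613) and lower with the mean of all probe sets (-0.21, adjusted p = 0.00403).

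SLC25A43, a member with no firmly established substrate, rose by 0.60 ± 0.10 (SE, limma adjusted p = 1.3e-05), or 1.51-fold. It was at 570, 727 and 600 units in the PS arrays of U87 against 332, 307 and 315 in CB, at 190, 208 and 217 in U251 against 126, 139 and 141, at 597, 591 and 602 in HT1080 against 346, 277 and 332, and at 578, 554 and 592 in DU145 against 396, 380 and 435. No PS array of SLC25A43 reached down to a CB array in these 4 lines. In MDA231 it was at 779, 556 and 283 against 529, 250 and 469, and in MDA435 at 463, 650 and 921 against 560, 514 and 403. In MDA231 the arrays with much CDH1 gave the lowest SLC25A43 values of both fractions, and in MDA435 the PS array with little CDH1 gave the highest PS value while the CB array with little CDH1 gave the highest CB value. Without those 4 arrays the averaged rise of SLC25A43 was 0.59, and it was 0.39 in MDA231 (0.32 with them) and 0.26 in MDA435 (0.41 with them). SLC25A46, an outer membrane protein of mitochondrial fusion and shape, was at 1085 ± 211 units in PS and 921 ± 166 in CB (SD, 18 arrays each) and rose by 0.23 ± 0.062.

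The members related to uncoupling proteins did not share a direction. SLC25A27, known as UCP4 and as a neuronal gene, was the carrier that fell: in MDA231 it was at 16.4, 17.1 and 22.2 units in PS and 65.1, 59.2 and 79.8 in CB, and in MDA435 at 28.6, 28.9 and 36 against 67.7, 97.2 and 83.7. In HT1080 it was at 25.5, 23.1 and 19.9 against 41.9, 52 and 49.4, and in DU145 at 20, 27.9 and 32.5 against 56.8, 46.9 and 59.1. The fractions of SLC25A27 were apart in these 4 lines, with PS below. In U251 it was at 17.2, 16.5 and 16.3 against 18.8, 27.7 and 15, and in U87 at 3.4, 4.6 and 16.1 against 9.1, 12.1 and 6.6, which are dim values that overlapped. The averaged fall was -0.67 ± 0.067 (SE, limma adjusted p = 1.81e-09), or 1.59-fold lower. SLC25A30 rose by 0.30 ± 0.056, from 294 ± 112 units in CB to 358 ± 108.1 in PS (SD, 18 arrays each). SLC25A14, known as UCP5, was at 723 ± 227 in PS and 727 ± 212 in CB and did not pass.

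**Figure D2:**
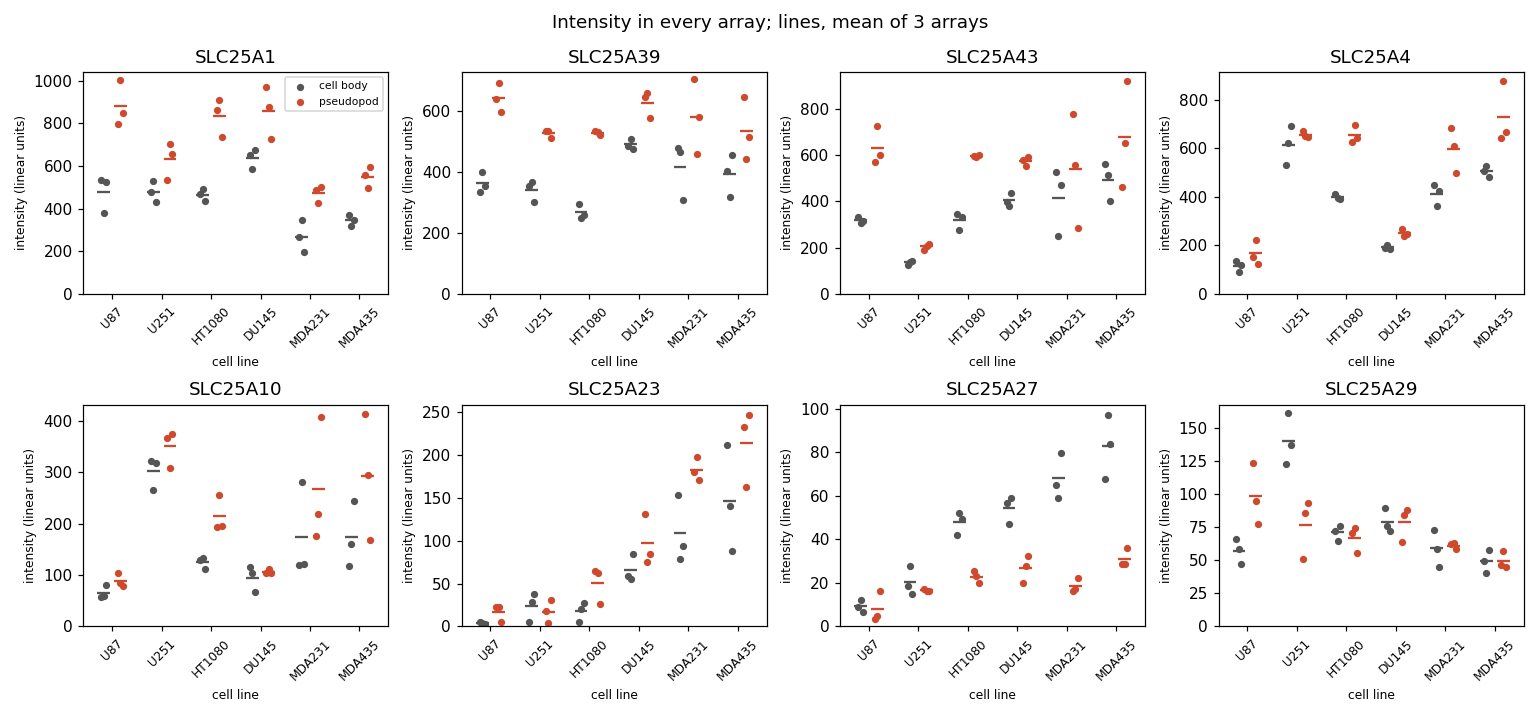
Intensity in linear units (y axis) of 8 SLC25A genes in each of the 36 arrays, by cell line (x axis); grey points are cell body arrays, red points pseudopod arrays, and short lines the mean of 3 arrays. SLC25A1 lies higher in pseudopods in every line, SLC25A27 lies lower in HT1080, DU145, MDA231 and MDA435, and SLC25A29 goes opposite ways in U87 and U251.

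Neither iron carrier passed on the average. SLC25A37 and SLC25A28, mitoferrins that bring iron in for haem and iron-sulfur clusters, differed by -0.22 ± 0.11 (SE, adjusted p = 0.0891) and 0.14 ± 0.073 (adjusted p = 0.112). The mean of SLC25A37 was lower in PS in 6 of 6 lines, and it passed in 3 of 12 alternatives: with the mean of all probe sets (-0.26, adjusted p = 4.6e-05), array weights (-0.27, adjusted p = 0.0146) and the 6 lines as units (-0.22, adjusted p = 0.0169). SLC25A28 was called after scaling to equal medians (0.29, adjusted p = 0.00136), with quantile normalization (0.19, adjusted p = 0.0267) and array weights (0.19, adjusted p = 0.00909). Of the acylcarnitine-like members, SLC25A20, which carries fatty acids as acylcarnitines for oxidation, was at 196 ± 62.5 units in PS and 207 ± 63.7 in CB (SD, 18 arrays each), and neither it nor SLC25A45 passed. Of the 4 antisense RNAs only SLC25A25-AS1 passed, falling to 67.1 ± 25.7 units in PS from 92.0 ± 29.4 in CB (-0.39 ± 0.11, adjusted p = 0.00246). SLC25A25-AS1 was lower in PS in 6 of 6 lines, while the carrier gene SLC25A25 on the opposite strand had its mean higher in 5 of 6. The difference between that pair was not tested, and arrays of the fractions of SLC25A25-AS1 were apart in U251 and DU145.

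Within single lines, with 3 arrays a fraction, fewer members passed. In U87, 8 members were higher against a background of 11.7% of all genes (17.8% of the members) and 1 was lower against 11.8%. HT1080 gave 9 higher (20% of the members, background 12.8%) and 2 lower (background 12%). U251 gave 2 higher and 1 lower (backgrounds 5.36% and 9.33%), MDA231 1 and 1 (1.18% and 4.9%), MDA435 3 and 1 (2.96% and 8.81%), and DU145 0 and 1 (0.825% and 2.16%). At an unadjusted p under 0.05, limma gave 7 higher members in DU145. The shares of higher members lay near their backgrounds in U251, MDA231 and DU145. The median carrier change was 0.26 in U87 and 0.25 in HT1080, against 0.041 and 0.085 for all genes. It was 0.079 in U251 (0.073 for all genes), 0.10 in DU145 (0.039), 0.17 in MDA231 (0.0077) and 0.14 in MDA435 (0.064). Without the 4 arrays that stand apart in CDH1 the carrier median was 0.17 in MDA231 (0.011 for all genes) and 0.19 in MDA435 (0.057). The members called were then 2 in MDA231, 3 in MDA435, 8 in U251, 2 in DU145, 14 in HT1080 and 9 in U87. The share of all genes called in that fit was not counted, and the backgrounds above do not apply to it.

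The 30 line calls fell on 16 members, 8 of which were called in at least 2 lines. How often calls of other genes repeat between lines was not counted, so this is not shown to be a trait of the members. In 28 of the 30 the PS and CB arrays did not overlap (the others are SLC25A4 in U87 and SLC25A23 in HT1080). The calls were made on those same arrays, so this count is not independent of them. It was not taken over the calls of all genes either. SLC25A1 passed in U87 (0.87 ± 0.16), HT1080 (0.82 ± 0.16), MDA231 (0.81 ± 0.16) and MDA435 (0.65 ± 0.16; all SE). SLC25A39 passed in U87 (0.80 ± 0.16), U251 (0.61 ± 0.16) and HT1080 (0.95 ± 0.16), and SLC25A4 in U87 (0.47 ± 0.16), HT1080 (0.69 ± 0.16) and MDA435 (0.51 ± 0.16). SLC25A27 fell in HT1080, DU145, MDA231 and MDA435. SLC25A33, SLC25A38 and SLC25A43 also rose in U87, where SLC25A43 had the largest rise of any member in that line at 0.95 ± 0.25. SLC25A23, SLC25A26, SLC25A30, SLC25A43 and SLC25A46 rose in HT1080, SLC25A15 in both U87 and HT1080, SLC25A11 in U251 and SLC25A51 in MDA435. Counted by arrays alone, the PS arrays of 23 of the 45 members all lay above the CB arrays in HT1080, which is 51.1% against 29.5% of all genes. The same held for 13 members in U251 (28.9%, background 22%), 11 in DU145 (24.4%, background 16.7%), 10 in MDA231 (22.2%, background 9.11%), 9 in U87 (20%, background 17%) and 9 in MDA435 (20%, background 12.3%). All PS arrays lay below for 8 members in DU145 (17.8%, background 14.9%), 4 in U251 (background 16.9%), 3 in HT1080 (18.4%) and 1 each in U87 (14.3%), MDA231 (11.9%) and MDA435 (12.3%). Without the 4 CDH1 arrays, with 2 arrays left in each fraction of these lines, the PS arrays lay above for 16 members in MDA231 (35.6%, background 28.1%) and 16 in MDA435 (35.6%, background 25.1%), and below for 7 (background 27.9%) and 5 (background 20.3%).

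SLC25A35 fell in U87, where it was at 17, 22.1 and 55.5 units in PS and 72.7, 97.5 and 76.7 in CB (-1.13 ± 0.32, SE, adjusted p = 0.0097), and in HT1080, at 32.2, 19.5 and 9.9 against 55.8, 46.6 and 49.2 (-0.91 ± 0.32, adjusted p = 0.0356). In DU145 it was at 56.3, 52.6 and 19.6 against 15.1, 15.5 and 24.1, a difference of 0.72 that did not pass, and its arrays overlapped. Its differences between lines did not pass either (moderated F, adjusted p = 0.117). Of the 30 line calls, 10 were kept without any single array and under every alternative in which the gene was tested. They are SLC25A1 in its 4 lines, SLC25A27 in MDA231 and MDA435, SLC25A39 in U87 and HT1080, and SLC25A33 and SLC25A43 in U87. SLC25A1, SLC25A39 and SLC25A43 each rest on a single probe set ending in _s_at. The alternative without such probe sets could not test their calls. Without the 4 arrays that stand apart in CDH1, SLC25A4 and SLC25A51 in MDA435 were at 0.56 (adjusted p = 0.0664) and 0.48 (adjusted p = 0.233).

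The PS change of 2 members differed between lines by a moderated F test, 4.44% of the 45 against a background of 1.18%. SLC25A27 (adjusted p = 0.0113) differed most in MDA231, at -1.28 ± 0.16 (SE), and MDA435, at -1.06 ± 0.16. It was at -0.72 ± 0.16 in DU145, -0.71 ± 0.16 in HT1080, -0.15 ± 0.16 in U251 and -0.10 ± 0.16 in U87. SLC25A27 was also dimmer in the CB arrays of the last lines, with 20.5 ± 6.52 units in U251 and 9.27 ± 2.75 in U87 (SD, n = 3), and with log2(intensity + 4) its F did not pass (adjusted p = 0.161). Without MDA231 and MDA435 it did not pass either (adjusted p = 0.222). Without the 4 CDH1 arrays alone SLC25A27 passed (adjusted p = 0.00547), at -1.43 in MDA231 and -1.25 in MDA435.

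SLC25A29, which carries arginine, lysine and ornithine, was the other (adjusted p = 0.0356). It rose in U87, from 66.2, 58.2 and 47.5 units in CB to 124, 94.8 and 77.8 in PS (0.64 ± 0.18, SE), and fell in U251, from 122.5, 162 and 137 in CB to 51, 86 and 93.1 in PS (-0.78 ± 0.18). In both lines the fractions were apart, and in the other 4 lines SLC25A29 ranged from -0.080 in HT1080 to 0.058 in MDA231. This rests on 1 probe set: without probe sets ending _s_at or _x_at the next brightest gave -0.043 in U87 and 0.0088 in U251, and the F adjusted p was 0.99999. Without the 4 CDH1 arrays the F of SLC25A29 had an adjusted p of 0.0462. The brightest probe set of SLC25A29 was at 74.0 units on average and the next at 52.5.

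Levels in the cell bodies differed between lines for most members, as for most genes: 40 of 45 passed the moderated F test, which is 88.9% against a background of 80.6%. The fold between the highest and the lowest line had a median of 2.12 over the carriers and 2.14 over all genes, and 26 of 45 members reached a 2-fold range (57.8%, background 55.7%). In 12 members all 3 arrays of the highest line lay above all other CB arrays (26.7%, background 30.3%). Of the 41 carriers, 14 were highest in U251, 12 in MDA435, 8 in DU145, 4 in U87, 2 in MDA231 and 1 in HT1080. Over all genes those lines were highest in 17%, 20%, 17.4%, 14.3%, 18.4% and 12.9%.

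The widest range was that of SLC25A21, which carries oxoadipate in the breakdown of lysine and tryptophan. It was at 2687, 2865 and 2295 units in the DU145 cell bodies and at 40, 23.5 and 78 in MDA231, 17, 21.7 and 19.2 in HT1080, 4.2, 5.8 and 2.9 in MDA435, 8, 1.3 and 2.5 in U87 and 3, 4.5 and 3.3 in U251. The DU145 pseudopods were at 2826, 2760 and 2808 units. SLC25A21-AS1, an RNA that starts inside the gene on the other strand, had another order: its CB arrays gave 65.1, 90.5 and 94.6 units in HT1080, 77.3, 85 and 67.2 in DU145 and 56.1, 33.6 and 76.8 in MDA231, and at most 2.5 in the other 3 lines. The lines without SLC25A21-AS1 signal were thus also those with the lowest SLC25A21 signal, while HT1080, level with DU145 for SLC25A21-AS1, had little SLC25A21.

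The gene starts of SLC25A21 and SLC25A21-AS1 lie 580 bases apart on chromosome 14, and the genes overlap by 581 bases (RefSeq, GRCh38.p14). Both start regions are shown because the RNAs from them differ by line; each window runs from 250 bases before to 50 bases after the gene start, with every CG pair, the site of DNA methylation, in capitals. The SLC25A21 window is chr14:37172557-37172856 on the minus strand and the SLC25A21-AS1 window chr14:37171776-37172075 on the plus strand.
SLC25A21: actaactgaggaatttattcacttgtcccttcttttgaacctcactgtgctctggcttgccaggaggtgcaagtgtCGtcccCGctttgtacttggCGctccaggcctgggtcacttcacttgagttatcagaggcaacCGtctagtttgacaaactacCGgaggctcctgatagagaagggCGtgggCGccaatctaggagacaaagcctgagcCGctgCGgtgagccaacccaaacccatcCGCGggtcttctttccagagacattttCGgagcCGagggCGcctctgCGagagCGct
SLC25A21-AS1: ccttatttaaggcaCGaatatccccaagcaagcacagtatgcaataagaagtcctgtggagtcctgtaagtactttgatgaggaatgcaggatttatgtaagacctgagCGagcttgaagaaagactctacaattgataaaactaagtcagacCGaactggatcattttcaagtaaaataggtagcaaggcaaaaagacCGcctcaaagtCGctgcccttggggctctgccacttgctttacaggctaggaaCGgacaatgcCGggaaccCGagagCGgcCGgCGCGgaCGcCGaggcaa
The SLC25A21 window holds 16 CG pairs and the SLC25A21-AS1 window 14. Of 35116 RefSeq windows of 300 bases, 47.5% hold at least as many as the former and 50.3% at least as many as the latter. Methylation was not measured in this study.

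SLC25A37 ranged 9.99-fold, with 1363, 1428 and 1271 units in the DU145 cell bodies, above all other lines, and 163, 122 and 88 in U251, below all others. SLC25A23 was at 146 ± 62.0 units in MDA435 and 3.77 ± 1.11 in U87 (SD, n = 3), and its U87 arrays lay below all others. SLC25A4 was lowest in U87, at 114 ± 23.4 units, followed by DU145 at 191 ± 9.59, and highest in U251, at 615 ± 80.2. The arrays of U251 lay above those of the second line, MDA435 at 505 ± 23.3, by a narrow margin (532 against 526). SLC25A10 had the same order of lines as SLC25A4, from 302 ± 31.2 in U251 to 65.9 ± 12.4 in U87, but its arrays overlapped between U251 and MDA231. That overlap came from CB replicate 2 of MDA231 at 281 units, 1 of the 4 CDH1 arrays, against 266 in the lowest U251 array. Without the 4 CDH1 arrays SLC25A10 was at 121 units in MDA231, below HT1080 at 125, so the shared order rested on them. SLC25A18, a glutamate carrier known from astrocytes, was at 85.3 ± 2.16 in U251, above all other lines. SLC25A27 was highest in MDA435 at 82.9 ± 14.8 and MDA231 at 68.03 ± 10.6, which overlapped. Without the 4 CDH1 arrays these lines were at 90.5 and 72.5 units, and the highest line of SLC25A23 was MDA231 at 123.5, followed by MDA435 at 114, with 2 arrays each. SLC25A3, SLC25A5 and SLC25A38 varied least among the members whose CB levels passed, with 1.41-fold, 1.48-fold and 1.36-fold between the highest and lowest line.

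**Figure D3:**
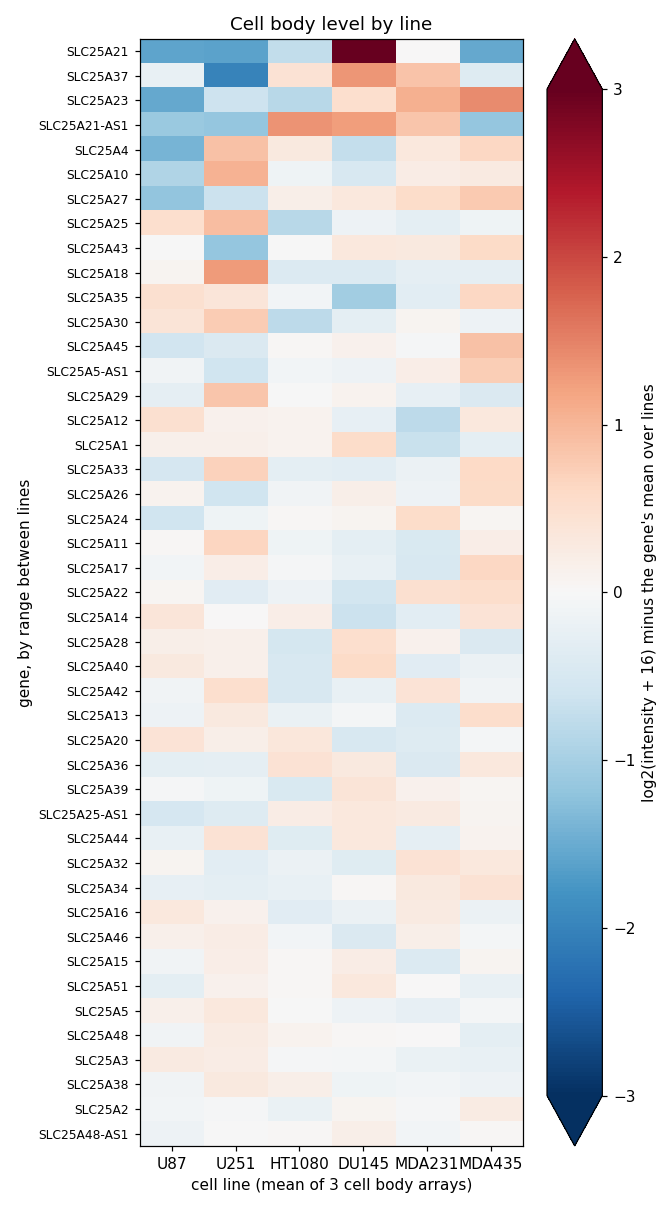
Cell body level of each tested SLC25A gene (rows, ordered by range between lines) in the 6 lines (columns), as the mean log2(intensity + 16) of 3 arrays minus the gene's mean over lines; red is above and blue below, and the scale ends at 3. SLC25A21 in DU145 is the darkest cell, and SLC25A37 and SLC25A43 are blue in U251, where SLC25A18 is red.

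The probe sets of a gene did not always move alike. Of 81 member probe sets tested on their own, 27 were higher in PS (background 25.4% of all probe sets) and 13 were lower (background 24.5%). Of 22 members with at least 2 tested probe sets, 14 had 1 sign throughout, and 0 had calls in both directions. SLC25A37 had 9 tested probe sets, of which 6 were called lower and 0 higher, while the brightest, on which its result above rests, did not pass (-0.22). The lowest of the 6 was at -0.52 ± 0.078 (SE), with 235 units in PS and 353 in CB. The other called probe sets of SLC25A27 were at -0.45 and -0.27. For SLC25A11 the dimmer probe set rose more than the brightest, by 0.54 against 0.29, and SLC25A3 had a dim probe set that rose by 0.42 (adjusted p = 0.0126) beside the bright one that did not pass. In SLC25A36 and SLC25A16, 1 dimmer probe set each fell, at -0.83 and -0.41, and the others did not pass. The dimmer probe set of SLC25A17 fell by 0.21 (adjusted p = 0.0157), and a dimmer one of SLC25A28 rose by 0.18 (adjusted p = 0.028), beside brightest ones that did not pass. Which transcripts these probe sets detect was not tested.

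**Figure D4:**
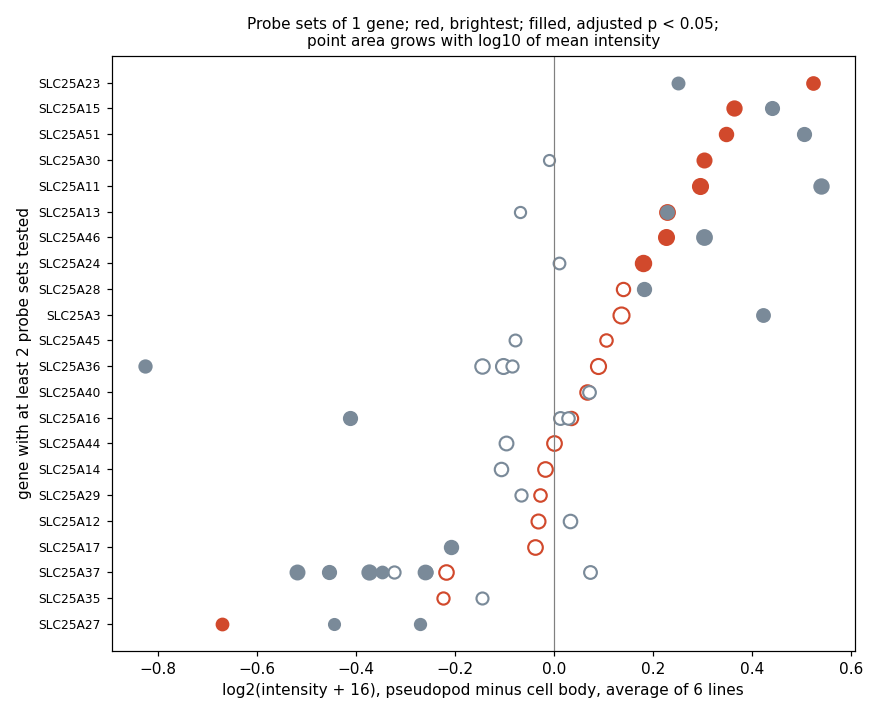
Change on the log2(intensity + 16) scale (x axis) of each probe set of the 22 SLC25A genes with at least 2 tested probe sets (y axis); red is the brightest probe set, grey the others, filled an adjusted p under 0.05, and point area grows with the mean intensity. The SLC25A37 points lie left of 0 apart from 1 open point at 0.073, and SLC25A36 and SLC25A16 each have 1 filled grey point to the left.

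The genes that work with the carriers were counted on the same averaged contrast, in lists chosen with results of these data known, and each count stands against 29.5% higher and 20.8% lower over all genes tested. Of 14 tested genes of carrier import, 11 were higher and 0 lower in PS, with a median of 0.39. The risers include the small chaperones TIMM10 (0.64 ± 0.081, SE), TIMM13 (0.59 ± 0.077), TIMM8B (0.56 ± 0.083) and TIMM8A (0.46 ± 0.067), while TIMM22, the pore that inserts SLC25A proteins, and TOMM70, their receptor, did not pass (0.11 and 0.096). Of 12 genes of presequence import, which serves matrix proteins, 9 were higher and 0 lower, led by TIMM17B (0.52) and GRPEL1 (0.50). Relatives of the SLC25A family under other symbols and the porins gave 5 higher of 6, among them UCP2 (0.53 ± 0.15) and the outer membrane insertase MTCH2 (0.34 ± 0.064). Among the malate-aspartate shuttle enzymes, 3 of 4 were higher (MDH2 0.35, GOT2 0.35, MDH1 0.18).

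Other transporters of the inner membrane were mixed, with 5 higher (41.7%) and 2 lower (16.7%) of 12. The pyruvate carrier subunits MPC2 (0.48) and MPC1 (0.43) rose, and the ABC transporters ABCB10 (-0.55) and ABCB8 (-0.38) fell. Nuclear-encoded respiratory chain genes gave 62 higher and 0 lower of 74 (median 0.37, the largest ATP5F1D at 0.84), and mitochondrial ribosome genes 72 higher and 0 lower of 75 (median 0.45, the largest MRPL40 at 0.75). The carrier median of 0.14 was below both. Of the 7 mitochondrially encoded transcripts 0 were higher and 3 lower (COX3 -0.69, ND2 -0.45 and ND6 -0.44). Of 8 regulators of mitochondrial biogenesis, 3 were higher (ESRRA 0.29, TFB2M 0.16 and TFAM 0.14), or 37.5%, not far from the background. Solute carriers of the other SLC families, most of them made at the endoplasmic reticulum, gave 10 higher (4.35%) and 145 lower (63%) of 230, with a median of -0.42, and SLC39A10 (-1.70), SLC39A7 (-1.67), SLC52A2 (-1.51) and SLC30A7 (-1.51) fell most. In the lists above with 0 calls in a direction, limma also gave 0 in that direction at an unadjusted p under 0.05. No test compared the lists with each other.

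**Figure D5:**
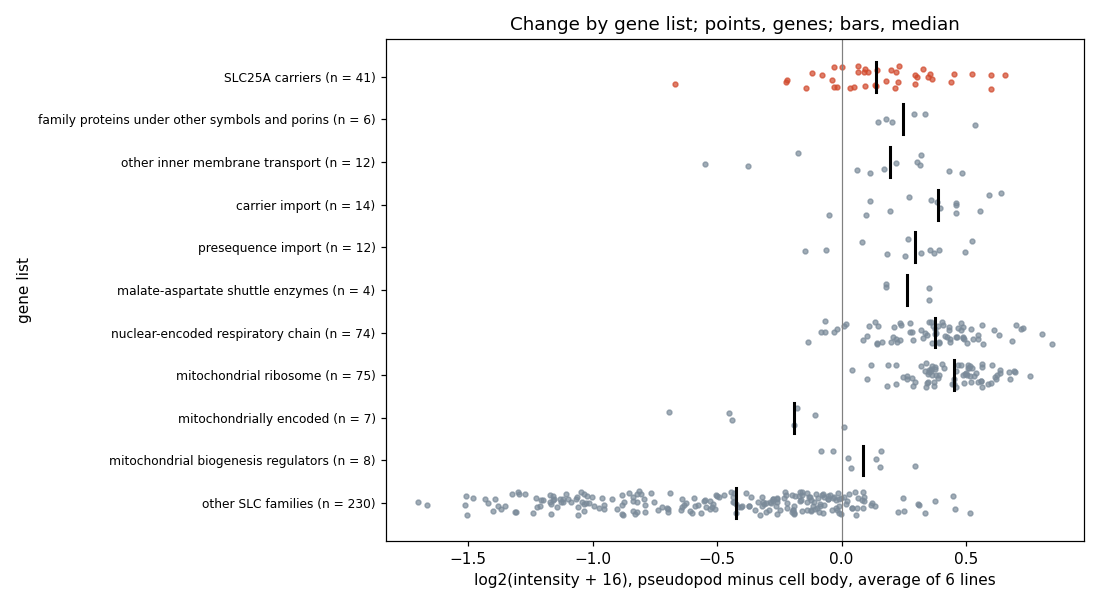
Change averaged over the 6 lines on the log2(intensity + 16) scale (x axis) of every tested gene in each list (y axis); points are genes and black bars the list medians, with n the number of genes. The SLC25A carriers centre at 0.14, between the mitochondrial ribosome at 0.45 and the other SLC families at -0.42.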

How the data were processed

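The deposited values are linear intensity values, 1 per probe set and array, on Affymetrix HG-U133 Plus 2.0 arrays of 36 samples. RMA and Partek appear in the submitters' processing notes with neither role nor version; which program made the linear values is not stated there or in the labels. From the values, each array was scaled to a common mean after trimming 2% at each end (149.2 to 149.6 units), so a value is relative to the rest of its array. Arrays give no read depth; their number, 3 per line and fraction, limits the precision.

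Here log2(intensity + 16) was taken, a scale on which changes of dim genes come out too small and folds differ from ratios of printed intensities. Of 54593 probe sets, 41074 carry 1 symbol, 1798 several and 11721 none; 41020 were matched to current RefSeq symbols. Each of 19775 genes was read from its brightest probe set, and the 15399 whose highest group mean reached 24.4 were tested with limma 3.58.1 in R 4.3.3: 12 group means, 24 residual degrees of freedom, Benjamini-Hochberg adjusted p under 0.05 over all genes tested. The contrasts were PS minus CB averaged over lines and within each line, moderated F tests of the differences between lines and of CB levels between lines, and a fit over 35240 probe sets. Scripts were tested on simulated data. The members, lists and tests were chosen with earlier results of these data known. Every member could be named; per-array values are given for the members with the largest called changes, and other lists name up to 4 called genes with the largest change, with TIMM22, TOMM70 and some others added after their values were seen. The alternatives were another pseudocount, scaling, filter or choice of probe set, array weights, a replicate block, the lines as units, and arrays or lines left out. Leaving out the 4 arrays that stand apart in CDH1 was added after seeing the data. Figures were drawn with matplotlib 3.10.9 in Python 3.11.15.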

Additional observations from a re-analysis of the deposited data

Results flagged for a closer look

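SLC25A27 changed by different amounts in the 6 lines (moderated F, limma, adjusted p = 0.0113), from -1.28 in MDA231 to -0.10 in U87, and all 6 changes were below 0. Over the 36 fits that each leave out 1 array its adjusted p reached at most 0.0277. It did not pass in 5 other alternatives: with log2(intensity + 4) (adjusted p = 0.161), equal array medians (0.0548), the mean of all probe sets (0.173), the replicate block (0.142) and without MDA231 and MDA435 (0.222).

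SLC25A29 changed in opposite directions in U87 (0.64) and U251 (-0.78), and the test of the differences between lines passed (moderated F, adjusted p = 0.0356). It did not pass in 12 of the 36 fits that each leave out 1 array, with adjusted p from 0.0508 to 0.109. These were the fits without U87 PS replicate 1 (0.0952) or 2 (0.0546), U87 CB replicate 2 (0.0568) or 3 (0.0996), U251 PS replicate 1 (0.105), U251 CB replicate 2 (0.109) or 3 (0.0793), HT1080 CB replicate 1 (0.0528), 2 (0.056) or 3 (0.0508), DU145 CB replicate 2 (0.0511) and MDA231 PS replicate 2 (0.0534). The second tested probe set of SLC25A29 did not show the difference. The cause was not tested.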

How the results depend on the processing

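Of the 21 calls on the average over lines, 21 were kept in each of the 36 fits without 1 array. In the other alternatives, at most 12 per gene, 17 were kept wherever the gene was tested. SLC25A1, SLC25A32, SLC25A39 and SLC25A43 each rest on a single probe set, which ends in _s_at. They did not enter the alternative without such probe sets and were tested in 11. SLC25A24 was lost in 3 (0.12 with quantile normalization, 0.095 with the mean of all probe sets, 0.13 without MDA231 and MDA435), SLC25A25 in 2 (0.093 without those lines; adjusted p = 0.086 with the lines as units), SLC25A26 in 1 (adjusted p = 0.0873, lines as units) and SLC25A30 in 1 (0.091, mean of all probe sets). Scaling the arrays to equal medians moved the median change of all genes from 0.047 to 0.17 and that of the carriers to 0.30, and the share of higher among called genes from 58.7% to 73.8%. With quantile normalization these were 0.095, 0.17 and 65.1%. Members not called were also called under some alternatives, among them SLC25A3, SLC25A5, SLC25A28 and SLC25A37, and without the 4 CDH1 arrays SLC25A34 (-0.15, adjusted p = 0.0456).

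Counts of members called moved as follows. For differences between lines the 2 became 0 with log2(intensity + 4), equal medians, the mean of all probe sets or the replicate block, 1 without probe sets ending _s_at or _x_at, and 9 with array weights. Array weights also gave 6 lower on the average (2 without weights; 5 with the mean of all probe sets), 11 in U251, 19 in HT1080, 6 in DU145, 12 in MDA231 and 12 in MDA435. Without _s_at and _x_at probe sets U87 gave 5, U251 1, HT1080 7 and MDA231 1, with SLC25A1, SLC25A39 and SLC25A43 absent from that fit. Equal medians gave 0 in DU145 and 7 in MDA231, and quantile normalization 8 in MDA435. Without MDA231 and MDA435, U251 gave 9 and DU145 2; without the 4 CDH1 arrays they gave 8 and 2. The replicate block gave 0 in DU145 and 2 in MDA435. Replicate numbers did not pair the arrays: the deviations of the 18 pairs with the same number correlated at -0.78 to 0.69, and 4 were over 0.1. Leaving out 1 array gave 19 to 21 higher and 2 to 3 lower on the average, 5 to 15 in U87, 1 to 3 in U251, 7 to 13 in HT1080, 0 to 1 in DU145, 2 to 4 in MDA231, 2 to 5 in MDA435, 1 to 3 for differences between lines and 38 to 41 for CB levels.

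Changes of sign fell on members not called, apart from SLC25A29 in single lines: without _s_at and _x_at probe sets it was at -0.043 in U87 and 0.0088 in U251. Equal medians turned SLC25A12 to 0.12, SLC25A14 to 0.14, SLC25A17 to 0.12, SLC25A20 to 0.072, SLC25A21-AS1 to 0.045, SLC25A29 to 0.10 and SLC25A48-AS1 to 0.031. Quantile normalization turned SLC25A21-AS1 to 0.021, SLC25A29 to 0.053, SLC25A44 to -0.020 and SLC25A48-AS1 to 0.030. The mean of all probe sets turned SLC25A16 to -0.084, SLC25A36 to -0.21 (adjusted p = 0.00403, a call) and SLC25A44 to -0.049. Without _s_at and _x_at probe sets SLC25A12 was at 0.031 and SLC25A36 at -0.10. Array weights turned SLC25A14 to 0.017, SLC25A2 to -0.00022 and SLC25A29 to 0.077. Without MDA231 and MDA435, SLC25A14 was at 0.0037, SLC25A16 at -0.0085 and SLC25A42 at -0.087, and without the 4 CDH1 arrays SLC25A44 was at -0.00030. Without 1 array SLC25A14 ran from -0.045 to 0.014, SLC25A17 from -0.084 to 0.012, SLC25A21-AS1 from -0.081 to 0.0068, SLC25A29 from -0.055 to 0.0070, SLC25A42 from -0.025 to 0.12 and SLC25A44 from -0.039 to 0.049. The causes were not tested. In U87 the PS and CB means of SLC25A23 and SLC25A27 were under the intensity minimum of 24.4. The CB mean of SLC25A23 was also under it in U251 (24.0) and HT1080 (17.8), and that of SLC25A27 in U251 (20.5). So were the PS mean of SLC25A23 in U251 and the PS mean of SLC25A27 in HT1080. All PS arrays of SLC25A27 in U251 and in MDA231 lay under the minimum as well.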
